A study of Mus musculus with 15 samples.

Results

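The genes described here are 10 carriers of organic anions, bile acids, phosphate or iodide: Slc10a1, Slco1a1, Slco1a4, Slco1b2, Slco2b1, Slc22a7, Slc17a1, Slc17a2, Slc17a3 and Slc5a5. They were chosen by symbol among the 18820 mouse genes that have a probe set of their own on the array, and each gene's probe set was selected on the highest mean over the 15 arrays. All 10 were measured, each by 1 probe set, so that selection decided nothing. That mean ran from 3.59 for Slco1a4 to 8.04 for Slc5a5 on the deposited log2 scale. It is a description of the probe sets, and brightness does not order different genes by their transcript number.

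Hepatocytes isolated from male C57BL/6J mice and kept in culture were profiled on 15 Affymetrix arrays, 3 for each of 5 adenoviruses. FXR is the bile acid receptor of the nuclear receptor family, and 4 groups received the human isoform FXRα1, FXRα2, FXRα3 or FXRα4 together with GFP, which the same virus makes from a CMV promoter. The control group received GFP alone, so every group was infected and made GFP. FXRα2 and FXRα4 lack the MYTG insert beside the DNA-binding domain that FXRα1 and FXRα3 have, and the N-terminus is longer in FXRα3 and FXRα4. Cells were plated at 450000 per well in medium with insulin (1 nM) and dexamethasone (0.1 μM). They spent the last 24 h without either hormone and were harvested 36 h after transduction. The amount of each isoform is not known here, since no probe set for the human transgene was used and its binding to the mouse Nr1h4 probes was not checked, and an isoform's identity cannot be told apart from its dose. No added FXR ligand is named in the labels. The sources used here give neither the age nor the number of the mice.

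Hepatocytes take up bile acids and other anions from sinusoidal blood by 2 main routes. Slc10a1 encodes the sodium-taurocholate cotransporter (NTCP), which uses the sodium gradient, and the Slco genes encode organic anion transporting polypeptides (OATPs), which do not. FXR is known for limiting the bile acid load of hepatocytes: it raises export through Abcb11 and, by way of the repressor gene Nr0b2, is known to lower Slc10a1 in the liver. Slc22a7 encodes the organic anion transporter OAT2. Slc17a1, Slc17a2 and Slc17a3 belong to a family first described as sodium-phosphate cotransporters, whose members also carry organic anions such as urate. Slc5a5 encodes the sodium-iodide symporter and is best known from the thyroid. The arrays measured transcripts and not the place of a protein in the membrane, so the word sinusoidal in the name of the set was not checked. The mean over 11 hepatocyte markers ran from 10.5 to 10.8 on the 15 arrays. Not all of them were bright: Alb had a mean of 13.1 in every group, but Asgr1 had group means of 5.64 to 6.32 and Tdo2 of 6.39 to 6.95.

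The promoter windows of 6 of the genes are shown because 3 of them lie side by side yet gave different patterns, 2 others had wide differences between groups, and Slco1b2 holds a near match to an FXR-type element. They come from RefSeq on GRCm38.p6, where 9 of the 10 genes had an entry, and each is read 5′ to 3′ on the gene's strand. Where a window reached into the gene's annotated span, only the part before it is printed, while the search used all 250 bases. The windows are chr13:23806743-23806940 (+ strand) for Slc17a2, chr13:23839184-23839433 (+) for Slc17a3, chr13:23868768-23869017 (+) for Slc17a1, chr12:80968706-80968955 (−) for Slc10a1, chr8:70892786-70893007 (−) for Slc5a5 and chr6:141629268-141629451 (+) for Slco1b2. Those of Slc17a1 and Slc17a3 lie inside the annotated span of their own gene. Slc10a1 and Slc17a1 have a further annotated start that is not printed, and the window before it holds 1 exact AGGTCA in each gene. Capitals mark AGGTCA, the half-site of many nuclear receptors, GTTAAT, a half-site of HNF1 factors, and pairs of AGGTCA with up to 2 mismatches, on either strand.
Slc17a2: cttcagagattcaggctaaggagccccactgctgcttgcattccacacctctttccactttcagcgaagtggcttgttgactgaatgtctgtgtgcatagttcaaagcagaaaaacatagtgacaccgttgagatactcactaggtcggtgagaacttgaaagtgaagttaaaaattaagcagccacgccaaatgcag
Slc17a3: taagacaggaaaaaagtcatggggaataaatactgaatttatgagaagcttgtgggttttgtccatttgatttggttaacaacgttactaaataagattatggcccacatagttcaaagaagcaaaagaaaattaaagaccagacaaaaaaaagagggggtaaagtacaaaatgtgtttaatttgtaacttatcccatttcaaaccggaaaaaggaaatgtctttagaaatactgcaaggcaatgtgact
Slc17a1: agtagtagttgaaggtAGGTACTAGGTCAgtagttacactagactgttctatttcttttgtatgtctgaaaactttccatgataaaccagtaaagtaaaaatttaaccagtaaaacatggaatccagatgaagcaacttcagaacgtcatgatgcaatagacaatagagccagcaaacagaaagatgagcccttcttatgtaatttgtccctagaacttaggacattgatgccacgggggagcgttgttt
Slc10a1: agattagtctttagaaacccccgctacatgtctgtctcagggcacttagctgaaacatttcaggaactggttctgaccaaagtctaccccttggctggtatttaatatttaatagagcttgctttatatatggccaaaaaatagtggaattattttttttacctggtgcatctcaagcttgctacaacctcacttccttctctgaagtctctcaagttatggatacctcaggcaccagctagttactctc
Slc5a5: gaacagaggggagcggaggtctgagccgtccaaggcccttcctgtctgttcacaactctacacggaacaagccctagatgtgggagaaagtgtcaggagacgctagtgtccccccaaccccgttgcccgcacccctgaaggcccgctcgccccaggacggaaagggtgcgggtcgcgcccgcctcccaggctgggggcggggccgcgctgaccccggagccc
Slco1b2: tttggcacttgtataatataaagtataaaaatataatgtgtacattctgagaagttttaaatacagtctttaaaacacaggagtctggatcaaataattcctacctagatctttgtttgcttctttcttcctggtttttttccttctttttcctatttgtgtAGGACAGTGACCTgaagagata

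The pairs searched were the inverted repeat with 1 base between (IR-1, AGGTCANTGACCT), the everted repeat with 2 (ER-2, TGACCTNNAGGTCA) and the direct repeat with 1 (DR-1, AGGTCANAGGTCA). Their half-sites are AGGTCA itself, so the searches overlap. The Slco1b2 window held an IR-1 match with 1 mismatch, which 0.992% of 27025 promoter windows of the same length hold with up to 2. The Slc17a1 window held a DR-1 match with 2 mismatches, and the Slco1a1 window, not printed, a DR-1 match with 1; 3.18% of windows hold DR-1 with up to 2. Exact AGGTCA was present at the first start of 3 of the 9 genes and in 13.8% of all windows, and GTTAAT at 1 of the 9 and in 6.52%. ER-2 occurred in 1.25% of all windows and at none of the first starts of the 9 genes. These are matches of letters and not sites of binding.

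Abcb11, the bile salt export pump gene and a classical FXR target, showed whether the viruses acted. It stood at 5.27, 5.04 and 5.21 with GFP. The arrays read 8.27, 7.88 and 8.39 for FXRα1, 8.46, 8.41 and 8.73 for FXRα2, 5.53, 5.51 and 5.95 for FXRα3 and 7.08, 7.03 and 7.03 for FXRα4. All 12 FXR arrays were above the 3 GFP arrays. The rise with FXRα3 was the smallest, a log2 of 0.49 ± 0.13 (SE, limma adjusted p = 0.00928), and the call was lost without FXRα3 replicate 3 or GFP replicate 2. Arrays of 1 group correlated across genes with r of 0.997 to 0.999, and the labels do not say that replicates were separate cultures or animals, so p-values measure the spread between these samples only. A gene is said to have risen or fallen where its Benjamini-Hochberg adjusted p over all 18820 genes was under 0.05 in limma.

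Most of the uptake carriers did not pass the test against GFP. Slc5a5 had already been singled out for its low level with FXRα2 when the set was drawn up, so its values are given without a test and the counts are over the 9 others. With FXRα1, 1 of 9 passed, upwards, beside 12.4% of all genes called in either direction. With FXRα2, 2 of 9 passed, all upwards, beside 34.3% of all genes. With FXRα3, 1 of 9 passed, downwards, beside 14.1%. With FXRα4, 2 of 9 passed, all upwards, beside 33.8%. The numbers with an unadjusted p under 0.05 were 3, 2, 1 and 2 in the same order. The share of all genes at that threshold was not computed, so these numbers have no background to be read against. With median centring of the arrays, 3, 4, 1 and 4 of 9 passed, beside 16.3%, 69.9%, 16.2% and 62.6% of all genes. These were not all rises. With FXRα1, Slc17a2 was higher and Slc17a1 and Slc22a7 were lower. Slc10a1 and Slc17a1 were higher and Slco1a4 and Slc22a7 lower with FXRα2. Slc17a1 was lower with FXRα3. With FXRα4, Slc17a1 was higher, Slco1a4, Slc22a7 and Slc17a2 were lower, and Slc10a1 lost its call. The 4 comparisons share the GFP arrays and are not independent. The median log2 difference of the 9 genes was 0.08, 0.14, 0.01 and 0.08, against 0.00, −0.05, −0.00 and −0.03 for all genes.

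**Figure D1:**
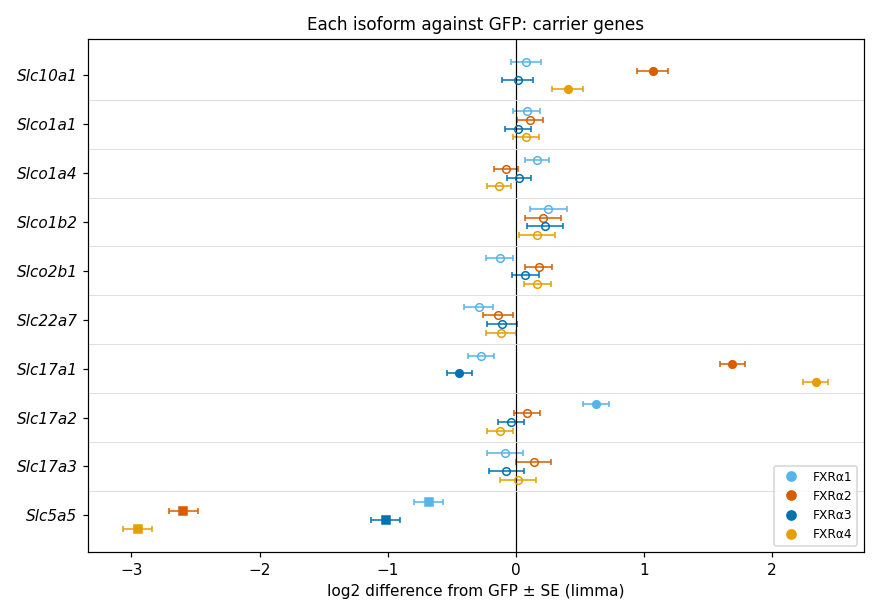
Log2 difference of each carrier gene from GFP (horizontal axis, ± SE from limma, 3 arrays a group) for the 4 isoforms. Filled circles passed at an adjusted p under 0.05, open circles did not, and the squares of Slc5a5 are a description with no test; Slc17a1 reached 2.34 with FXRα4 and Slc5a5 −2.95.

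Slc10a1, the sodium-coupled bile acid carrier, was highest with FXRα2. Its values were 5.98, 5.74 and 5.83 with GFP, 6.02, 5.75 and 6.01 for FXRα1, 7.15, 6.68 and 6.92 for FXRα2, 5.92, 5.76 and 5.92 for FXRα3, and 6.12, 6.22 and 6.42 for FXRα4. The FXRα2 arrays lay above all others, the FXRα4 arrays came next without overlap, and GFP, FXRα1 and FXRα3 overlapped. Slc10a1 rose 2.09-fold with FXRα2, a log2 of 1.07 ± 0.12 (limma adjusted p = 2.22e-07). With FXRα4 it rose by 0.40 ± 0.12 (limma adjusted p = 0.0109). That smaller rise lost its call with median centring (0.19, limma adjusted p = 0.12) and quantile normalization (0.23, 0.087). It also did so without FXRα4 replicate 3 (0.32, limma adjusted p = 0.0713) or GFP replicate 2 (0.35, 0.059). The differences with FXRα1 (0.08 ± 0.12, limma adjusted p = 0.795) and FXRα3 (0.01 ± 0.12, 0.976) did not pass.

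The repressor gene Nr0b2 was dim, with group means of 4.19 to 5.05, below the median over all genes, 5.72. It rose with FXRα2 by 0.40 ± 0.13 (limma adjusted p = 0.0154), where Slc10a1 was highest. It was lower with FXRα3 by −0.46 ± 0.13 (limma adjusted p = 0.0141) and with FXRα4 by −0.39 ± 0.13 (0.0198), and was at −0.02 ± 0.13 with FXRα1 (0.965). Each of its 3 calls was lost without single arrays: FXRα2 replicate 2, GFP replicate 2 or 3 for the first, FXRα3 replicate 3 or GFP replicate 1 for the second, and FXRα4 replicate 2 or 3 or GFP replicate 1 for the last. The rise with FXRα2 was also lost with median centring.

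None of the 4 OATP genes passed against GFP in the main fit, with all unadjusted p-values above 0.05 in limma, the only tool run. Under the alternatives, Slco1a4 was called with FXRα2 and with FXRα4 in 1 of 14 each. Slco1b2 was called with FXRα1 and with FXRα2 in 1 of 15 each. Slco1a1, which carries bile acids and steroid conjugates, had group means from 5.05 to 5.16. Its FXRα1 and FXRα2 arrays lay just above those of GFP, but the larger difference, 0.11 ± 0.10 with FXRα2, did not pass (limma adjusted p = 0.455). Slco1a4, a carrier of bile acids and cardiac glycosides, lay between 3.36 and 3.78, with its highest group mean in FXRα1 (3.76 ± 0.01, SD, n = 3) and its lowest in FXRα4 (3.47 ± 0.08). The 3 FXRα1 arrays of Slco1a4 were above those of GFP, but the difference of 0.17 ± 0.09 did not pass (limma adjusted p = 0.324). Nor did that of FXRα2 from FXRα1, −0.24 ± 0.09 (limma adjusted p = 0.0513), which was called in 5 of 14 alternatives.

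Slco1b2, the mouse counterpart of the human liver OATP1B carriers, lay between 3.66 and 4.41, and its GFP arrays at 4.28, 3.66 and 3.82 spread over most of that range. Its 4 differences from GFP were 0.17 to 0.25, each with an SE of 0.14. Its promoter window held the IR-1 match, and none of its differences passed (limma adjusted p = 0.283 to 0.422). Slco2b1 lay between 3.53 and 4.03. Its FXRα2 arrays lay just above those of GFP, but the difference of 0.18 ± 0.11 did not pass (limma adjusted p = 0.224). Slco2b1 was higher with FXRα2 (3.99, 3.96 and 3.99) than with FXRα1 (3.58, 3.91 and 3.53), by 0.31 ± 0.11 (limma adjusted p = 0.0319). That call failed when any of FXRα1 replicates 1 and 3 and the 3 FXRα2 arrays was left out (adjusted p = 0.061 to 0.154), with median centring (0.19, adjusted p = 0.233) and in a fit of these 2 groups alone (0.0529).

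Slc22a7 (OAT2) stood at 4.24, 4.57 and 4.31 with GFP and 4.26, 4.14 and 3.84 with FXRα1, its lowest group. The groups overlapped, and the difference of −0.29 ± 0.12 did not pass (limma adjusted p = 0.116). With the other isoforms it lay between 4.09 and 4.35. Its difference from GFP was called in 1 of 15 alternatives with each of FXRα1, FXRα2 and FXRα4. Of the 10 genes, 6 had a mean below the median over all genes, 5.72.

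**Figure D2:**
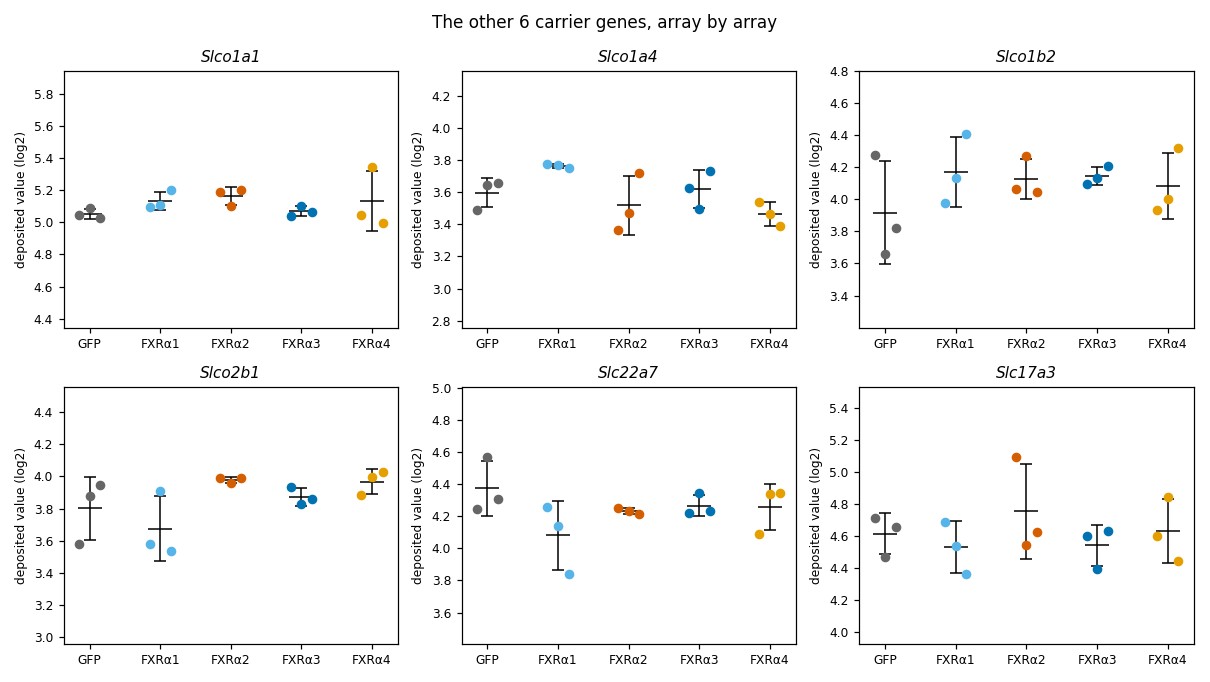
Deposited log2 value (vertical axis, at least 1.6 log2 units in each panel) of the 6 carrier genes that did not pass against GFP in the main fit, by group. Points are single arrays and bars the mean ± SD (n = 3). Every FXR group overlaps with GFP for Slco1b2, Slc22a7 and Slc17a3. FXRα1 and FXRα2 lie above GFP for Slco1a1, FXRα1 for Slco1a4 and FXRα2 for Slco2b1. Slco1b2 shows its widest spread with GFP, from 3.66 to 4.28.

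Slc17a1, the first-described member of its family, gave the widest rise of the set. Its arrays read 6.39, 6.47 and 6.27 with GFP, 5.91, 6.04 and 6.36 for FXRα1, 8.04, 8.05 and 8.10 for FXRα2, 6.02, 5.83 and 5.95 for FXRα3, and 8.70, 8.65 and 8.79 for FXRα4. The order of the groups was FXRα4, FXRα2, GFP, FXRα1 and FXRα3. The 2 highest groups stood apart from each other and from the rest, GFP overlapped with FXRα1, and FXRα1 with FXRα3. Slc17a1 rose 3.22-fold with FXRα2 (log2 1.69 ± 0.10, limma adjusted p = 6.13e-12) and 5.06-fold with FXRα4 (2.34 ± 0.10, 6.94e-14). It fell with FXRα3 by 0.44 ± 0.10 (limma adjusted p = 0.00279), and its 3 arrays there were below all GFP arrays. With FXRα1 the difference of −0.27 ± 0.10 did not pass (limma adjusted p = 0.0803), but was called in 5 of 15 alternatives.

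Slc17a2 rose with FXRα1. Its arrays read 5.98, 5.84 and 5.94 with GFP, 6.67, 6.34 and 6.62 for FXRα1, 5.98, 5.98 and 6.06 for FXRα2, 5.85, 5.91 and 5.88 for FXRα3, and 5.89, 5.64 and 5.86 for FXRα4. The FXRα1 arrays lay above all the others, and FXRα2, GFP, FXRα3 and FXRα4 followed in that order, GFP overlapping with FXRα3 and FXRα3 with FXRα4. The rise was 1.54-fold, a log2 of 0.63 ± 0.10 (limma adjusted p = 0.000132). Against FXRα1, Slc17a2 was lower with FXRα2 by −0.54 ± 0.10 (limma adjusted p = 0.000246) and with FXRα3 by −0.67 ± 0.10 (0.000195).

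Slc17a3 lay between 4.36 and 5.09 on all arrays, every FXR group overlapped with GFP, and its differences from GFP of −0.08 to 0.14 did not pass (limma adjusted p = 0.495 to 0.949).

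**Figure D3:**
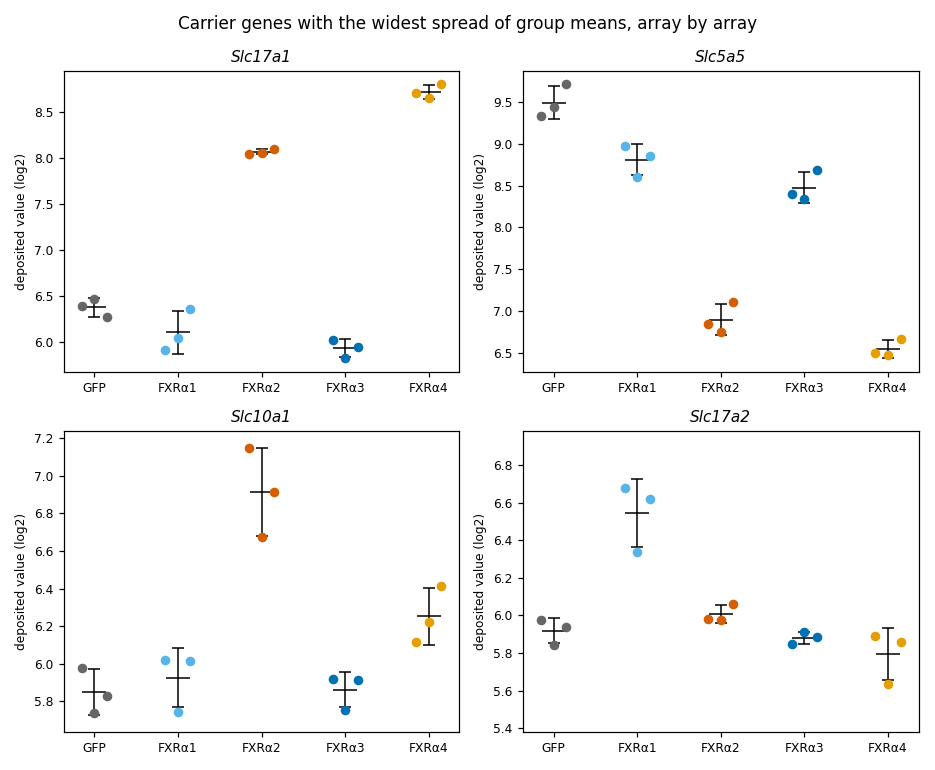
Deposited log2 value (vertical axis, scaled to each gene) of Slc17a1, Slc5a5, Slc10a1 and Slc17a2 on each array, by group, with the mean ± SD (n = 3). Slc17a1 is at 8.04 or more on every FXRα2 and FXRα4 array and at 6.47 or less elsewhere, and Slc5a5 is at 7.11 or less against 8.34 or more.

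The 3 Slc17 genes are neighbours on chromosome 13 in the order Slc17a2, Slc17a3, Slc17a1, followed by Slc17a4, with no other protein-coding gene of the RefSeq table between them. Slc17a4, a further family member, read 6.97, 6.10 and 6.40 with GFP, 5.69, 5.30 and 5.36 with FXRα3, and 5.76, 5.21 and 5.15 with FXRα4. It fell with FXRα3 by −1.04 ± 0.21 (limma adjusted p = 0.000905) and with FXRα4 by −1.12 ± 0.21 (0.000131), and these arrays did not overlap with GFP. With FXRα2 it fell by −0.56 ± 0.21 (limma adjusted p = 0.04), with overlapping arrays. That call was lost without FXRα2 replicate 2 or 3 or GFP replicate 3, without a trend in the variances (limma adjusted p = 0.0798), and without GFP replicate 1, where the difference was −0.314 (0.268). With FXRα4 the adjacent genes Slc17a1 and Slc17a4 moved in opposite directions. On the other side, the histone gene H1f1 rose with FXRα2 (0.68 ± 0.13, limma adjusted p = 0.000181) and FXRα4 (0.92 ± 0.13, 4.51e-06), while Trim38, which lies between it and Slc17a2, did not pass against GFP. Probe sequences were not used here, so binding of a family member's transcript to another's probes was not checked.

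**Figure D4:**
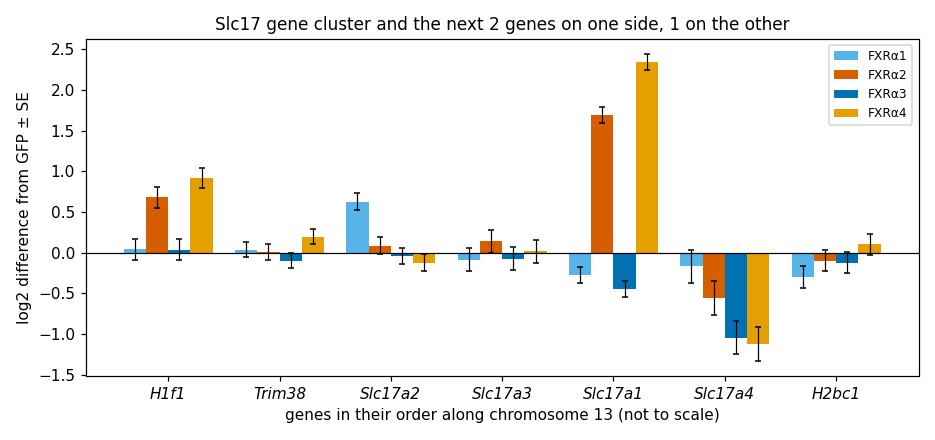
Log2 difference from GFP ± SE (limma, 3 arrays a group) for 7 genes in their order along chromosome 13, spacing not to scale, with 1 bar for each isoform. Slc17a1 is up with FXRα2 and FXRα4, Slc17a4 is down to −1.12 with FXRα4, Slc17a2 is up with FXRα1, and the bars of Slc17a3 lie between −0.08 and 0.14.

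Slc5a5 was brightest in the control. It stood at 9.33, 9.44 and 9.71 with GFP, 8.97, 8.60 and 8.86 for FXRα1, 6.84, 6.74 and 7.11 for FXRα2, 8.40, 8.34 and 8.68 for FXRα3, and 6.50, 6.47 and 6.66 for FXRα4. All 12 FXR arrays were below the 3 GFP arrays, and FXRα1 and FXRα3 overlapped while the other groups did not. The log2 difference from GFP was −0.68 for FXRα1, −2.59 for FXRα2, −1.02 for FXRα3 and −2.95 for FXRα4, each ± 0.11. With FXRα4 the level was 7.72-fold lower. The order of the groups was thus GFP, FXRα1, FXRα3, FXRα2 and FXRα4, and the difference between forms without and with the insert was −1.91 with the shorter N-terminus and −1.93 with the longer.

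Thyroglobulin (Tg) and the thyrotropin receptor gene Tshr had group means of 4.03 to 4.17 and 3.01 to 3.16. The mean over 9 measured thyroid markers was 4.41 to 4.49 on the GFP arrays and 4.36 to 4.62 on the FXR arrays. Iyd, the iodotyrosine deiodinase gene that is also known from liver, rose with all 4 isoforms, by 0.47 ± 0.07, 0.56 ± 0.07, 0.23 ± 0.07 and 0.85 ± 0.07 from FXRα1 to FXRα4 (limma adjusted p = 2.72e-05, 6.57e-07, 0.0227 and 1.14e-09). With FXRα3 the Iyd call was lost without FXRα3 replicate 1 or 2 or GFP replicate 1 or 2. With FXRα1, FXRα3 and FXRα4, Iyd was the 1 of 11 iodide genes that passed, and with FXRα2 it was 1 of 3; none fell. These counts were near or below the shares of all genes, 12.4%, 34.3%, 14.1% and 33.8% from FXRα1 to FXRα4. With median centring 0, 3, 1 and 2 of the 11 fell and 1 rose with each isoform, beside 16.3%, 69.9%, 16.2% and 62.6% of all genes. The part of thyroid cells in the level of Slc5a5 was not tested.

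The absence of the insert was compared at each N-terminus. Between FXRα2 and FXRα1, 4 of 9 carriers passed, beside 31.3% of all genes. Slc10a1 (0.99 ± 0.12, limma adjusted p = 9.06e-07), Slc17a1 (1.96 ± 0.10, 1.18e-12) and Slco2b1 were higher and Slc17a2 was lower with FXRα2. The call of Slco2b1 was lost as given above. Between FXRα4 and FXRα3, 2 of 9 passed, beside 29.5% of all genes. With median centring the shares of all genes were 42.7% for the first comparison and 48.9% for the second. Slc17a1 was higher with FXRα4 by 2.78 ± 0.10 (limma adjusted p = 7.51e-15), or 6.87-fold. Slc10a1 was higher by 0.39 ± 0.12 (limma adjusted p = 0.0162), and this call was lost with median centring (0.22), quantile normalization (0.25) and without FXRα3 replicate 2 (0.34) or FXRα4 replicate 3 (0.31).

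The N-terminus was compared with and without the insert. Between FXRα3 and FXRα1, 1 of 9 passed, Slc17a2, beside 6.86% of all genes, a share that was 4.42% without FXRα3 replicate 1, 4.14% without FXRα3 replicate 2 and 11.2% with the replicate number as a block. Between FXRα4 and FXRα2, 2 of 9 passed, beside 23.7%: Slc17a1 was higher with FXRα4 by 0.65 ± 0.10 (limma adjusted p = 3.08e-05), and Slc10a1 was lower by −0.66 ± 0.12 (0.000243). Without the insert, the longer form thus had more Slc17a1 transcript and less Slc10a1 transcript than the shorter form. The test of whether the difference made by the insert depended on the N-terminus passed for 3 of 9 carriers, beside 12.9% of all genes. The insert-free form exceeded its partner by 0.82 ± 0.14 more at the longer N-terminus for Slc17a1 (limma adjusted p = 0.000326). For Slc10a1 that difference of differences was −0.60 ± 0.17 (0.0215) and for Slc17a2 0.45 ± 0.15 (0.0415). The call of Slc10a1 was lost without FXRα2 replicate 1, FXRα3 replicate 1 or FXRα4 replicate 1, and that of Slc17a2 without any of 9 of the 12 arrays (limma adjusted p = 0.0661 to 0.117) and in a fit of the 4 FXR groups alone (0.0637).

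Genes with a like pattern were looked up for the 3 carriers whose group means spanned at least 1 log2 unit, over the 15 arrays and among 1103 genes with such a span. The 5 groups lie apart, so these correlations describe shared differences between groups and carry no p. Nearest to Slc17a1 were Dnajc9 (r = 0.992), Rcan1 (0.989) and Zfp750 (0.989). Nearest to Slc10a1 were the cysteine dioxygenase gene Cdo1 (r = 0.975), the steroid hydroxylase gene Cyp17a1 (0.975) and Sh2b3 (0.955). Nearest to Slc5a5 were Atxn7l3b (r = 0.983), Senp5 (0.982) and Cars2 (0.978).

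Further carriers of the 5 families were counted in the same way. Of 53 measured, 5, 18, 6 and 13 passed from FXRα1 to FXRα4, beside 12.4%, 34.3%, 14.1% and 33.8% of all genes, so the shares were near or below those of all genes. With FXRα2, 11 rose and 7 fell, against 5 and 30 with median centring. With FXRα4, 9 rose and 4 fell, against 4 and 27. Median centring called 69.9% and 62.6% of all genes in these comparisons. With FXRα1 it was 4 and 1, against 4 and 4, and with FXRα3 3 each way, against 4 each way. Slc10a4, an orphan relative of Slc10a1, rose with every isoform: 0.75 ± 0.16, 2.12 ± 0.16, 0.79 ± 0.16 and 2.04 ± 0.16 from FXRα1 to FXRα4 (limma adjusted p = 0.00257, 6.11e-10, 0.00142 and 1.25e-09). Slc10a4 was dim, with group means from 3.59 with GFP to 5.71 with FXRα2, below the median over all genes, 5.72. The inositol carrier gene Slc5a3 rose most with FXRα1 (1.22 ± 0.10, limma adjusted p = 1.65e-08) and FXRα2 (1.20 ± 0.10, 3.23e-09). The nucleotide carrier gene Slc17a9 rose with FXRα2 (1.19 ± 0.11, limma adjusted p = 1.21e-08) and FXRα4 (0.96 ± 0.11, 3.23e-07). It rose less with FXRα3 (0.40 ± 0.11, limma adjusted p = 0.0156), a call lost without FXRα3 replicate 3 or GFP replicate 3. The vitamin carrier gene Slc5a6 passed with FXRα1, FXRα2 and FXRα4, by 0.37 to 0.47, and lost each of these calls without single arrays.

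Of 20 measured transcription factor and receptor genes known to act on carriers of this kind, 7, 11, 8 and 12 passed from FXRα1 to FXRα4, beside 12.4%, 34.3%, 14.1% and 33.8% of all genes. The upward and downward numbers were 6 and 1, 10 and 1, 2 and 6, and 8 and 4. With median centring they were 3 and 3, 7 and 7, 1 and 7, and 5 and 11, beside 16.3%, 69.9%, 16.2% and 62.6% of all genes. Hnf4a, the hepatocyte identity factor, rose with all 4 isoforms, by 1.09 ± 0.05, 1.54 ± 0.05, 0.67 ± 0.05 and 0.86 ± 0.05 (limma adjusted p = 3.2e-12, 1.11e-15, 5.69e-09 and 1.76e-11). Nr1i2, the gene of the xenobiotic receptor PXR, rose with FXRα2 (1.58 ± 0.11, limma adjusted p = 1.35e-10) and FXRα1 (0.39 ± 0.11, 0.0223). It fell with FXRα3 (−0.54 ± 0.11, limma adjusted p = 0.00145) and FXRα4 (−0.37 ± 0.11, 0.0123). The call with FXRα1 was lost in 5 of 15 alternatives, and that with FXRα4 without GFP replicate 1. Cebpa rose with FXRα2 (0.79 ± 0.07, limma adjusted p = 4.97e-09) and FXRα4 (0.42 ± 0.07, 4e-05) and fell with FXRα3 (−0.71 ± 0.07, 1.48e-07). The pioneer factor gene Foxa1 rose most with FXRα2 (1.49 ± 0.07, limma adjusted p = 4.14e-13). It also rose with FXRα1 (0.59 ± 0.07, limma adjusted p = 4.49e-06) and FXRα4 (0.63 ± 0.07, 3.4e-07). With FXRα3 its difference of 0.19 ± 0.07 did not pass (limma adjusted p = 0.102). Rara, Esr1, Nfe2l2 and Nr3c1 passed with 3 isoforms each, with sizes of 0.68 or less, and all 4 lost calls under alternatives; Nfe2l2 with FXRα4 turned from 0.16 to −0.0512 with median centring. The signal of the mouse Nr1h4 probe set rose with FXRα4 by 0.41 ± 0.07 (limma adjusted p = 0.000117), and whether the human transgene adds to it was not tested.

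Partners at the membrane and in bile acid use were counted likewise. Of 14 measured, 4 rose with FXRα1, 4 rose and 1 fell with FXRα2, 4 rose with FXRα3, and 3 rose and 3 fell with FXRα4, beside the same shares of all genes, 12.4%, 34.3%, 14.1% and 33.8%. With median centring the numbers were 4 and 1, 2 and 6, 4 rises, and 3 and 7, beside 16.3%, 69.9%, 16.2% and 62.6% of all genes. Atp1b1, a subunit of the sodium pump that maintains the gradient NTCP uses, rose by 0.43 ± 0.05 to 0.64 ± 0.05 with all 4 isoforms (limma adjusted p = 8.48e-07 or less). The scaffold gene Slc9a3r1 (NHERF1) rose by 0.20 ± 0.06 to 0.72 ± 0.06, with the smallest call, that of FXRα3, lost without FXRα3 replicate 1 or 3 or GFP replicate 1. The bile acid ligase gene Slc27a5 rose with FXRα2, FXRα3 and FXRα4, the first of these not with median centring. Gsta3, a glutathione transferase gene, fell with FXRα2 (−0.71 ± 0.04, limma adjusted p = 4.9e-12) and FXRα4 (−0.57 ± 0.04, 2.05e-10).

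Markers of other liver cells were set beside these results. In bulk RNA, fewer cells of a type and less RNA per cell cannot be told apart. The mean of 8 measured cholangiocyte markers was 5.85 to 5.87 on the GFP arrays, 6.15 to 6.18 for FXRα1, 6.30 to 6.33 for FXRα2, 6.18 to 6.19 for FXRα3 and 6.33 to 6.45 for FXRα4. Within that list Epcam had means of 5.02 with GFP, 9.97 with FXRα2 and 9.70 with FXRα4, while Krt19 had 9.37, 7.55 and 8.44. With FXRα1 and FXRα3, Krt19 had 10.7 and 11.1. The part of these markers in the carrier differences was not tested. Kupffer cell markers had means of 4.35 to 4.57 over all arrays, stellate cell markers 4.36 to 4.52, sinusoidal endothelial markers 5.06 to 5.35, lymphocyte and neutrophil markers 3.53 to 3.77 and kidney tubule markers 3.80 to 4.01. The hepatocyte list was at 10.5 to 10.6 with GFP and FXRα1, 10.7 to 10.8 with FXRα2, 10.6 with FXRα3 and 10.7 with FXRα4.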

How the data were processed

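Expression was measured on 15 Affymetrix arrays in 5 groups of 3. The authors deposited 1 value per probe set and array, taken here as log2 from the range of 1.93 to 13.8; no source states the base. The submitters' processing notes name Affymetrix Expression Console 1.1 and PLIER. How background and array differences were handled is not given in the sources used here. With 3 arrays a group, their number limits the precision.

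Of 35556 probe sets, 21218 carried 1 gene symbol, 1881 several and 12457 none. Keeping the brightest probe set of each gene left 18820 genes. A model of 5 group means was fitted with limma 3.58.1 in R 4.3.3, with variances following the mean, two-sided tests and Benjamini-Hochberg adjustment over all genes. The fit was tested on simulated data. Alternatives were other scalings, a filter on dim genes, every probe set, 16 added to linear values, no trend, the groups of a contrast alone, the replicate number as a block and each array left out. Deviations of equally numbered arrays correlated above 0.1 in all 3 pairs for FXRα4 against FXRα3 (0.15 to 0.357) and against FXRα2 (0.13 to 0.425). The main fit had no pairing, so the p-values given for these comparisons are unpaired. The replicate number entered only as a block among the alternatives. Slc22a7 has no promoter entry.

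All 10 carriers could be named, with Abcb11, up to 3 genes of like pattern for each carrier spanning at least 1 log2 unit, and related genes called in at least 3 comparisons with GFP or among the 2 largest calls each way in their list. Chosen after their values were seen were Nr1h4, H1f1, Trim38, Tg, Tshr, Epcam and Krt19. Members and lists were chosen with earlier results of these data known. Tables and figures used Python 3.11.15, pandas 2.3.3 and matplotlib 3.10.9.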

Additional observations from a re-analysis of the deposited data

Results flagged for a closer look

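The difference between insert-free and insert-bearing isoforms was not the same at the longer and the shorter N-terminus for 3 carriers, by the limma interaction test adjusted over all genes. The difference of differences (longer minus shorter) was 0.82 ± 0.14 for Slc17a1 (adjusted p = 0.000326), −0.598 ± 0.17 for Slc10a1 (0.0215) and 0.454 ± 0.15 for Slc17a2 (0.0415). Of all genes, 12.9% passed the same test. The Slc10a1 call was lost without FXRα2 replicate 1, FXRα3 replicate 1 or FXRα4 replicate 1, and the Slc17a2 call without any of 9 of the 12 arrays and in a fit of the 4 FXR groups alone.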

How the results depend on the processing

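Of 18 carrier calls, the 288 values under the alternatives had the main sign in every case; 260 kept the call and 28 lost it. The number of carriers called with FXRα1 against GFP was 1, beside 12.4% of all genes. It was 3 with median centring, beside 16.3%. It was 2 each with quantile normalization (14.8%), centring on the 75th percentile (13.8%) and the replicate block (16.3%). With single arrays left out it was 1 to 2, beside 9.29% to 14.8%. With median centring the number of carriers was 4 in place of 2 for FXRα2 and for FXRα4 against GFP. The shares of all genes there were 69.9% in place of 34.3% and 62.6% in place of 33.8%. The carriers added to these counts were lower than with GFP, and Slc10a1 lost its call with FXRα4. Leaving out single arrays gave 1 to 2 carriers for FXRα4 against GFP (29.8% to 32.3% of all genes) and against FXRα3 (25.2% to 27.3%). For the interaction it gave 1 to 3 carriers (9.9% to 15.1% of all genes). The replicate block changed no count of carriers for FXRα4 against FXRα3 or against FXRα2. It moved the count of all genes from 5561 to 6297 against FXRα3 and from 4456 to 5196 against FXRα2. Arrays of different groups share only a number in the labels. With FXRα2 against GFP (r of 0.0804 to 0.206) and FXRα4 against FXRα3 (0.15 to 0.357), each array correlated best with its own number. The replicate block gave 5 in place of 4 carriers for FXRα2 against FXRα1, beside 34.9% in place of 31.3% of all genes. Over all genes it gave 2117 in place of 1291 for FXRα3 against FXRα1, a count that was 831 without FXRα3 replicate 1 and 780 without FXRα3 replicate 2. Median centring moved the median of all genes to −0.27 for FXRα2 and −0.24 for FXRα4 against GFP, and called 13162 in place of 6448, 11787 in place of 6352 and, for FXRα4 against FXRα3, 9200 in place of 5561 genes. The log2 difference of Nfe2l2 with FXRα4, called at 0.16, was at −0.0512 with median centring. Slc5a5, at −2.59 with FXRα2 and −2.95 with FXRα4, was at −2.82 and −3.16 with median centring, and at −2.75 with FXRα4 after adding 16 to linear values. The filter on dim genes removed Slco1a4. The cause of these shifts was not tested. Of 63 carrier comparisons not called, 12 were called under at least 1 alternative.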
